A study of Miniopterus schreibersii with 14 samples.

Results

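Components comp2108_c0, comp4839_c0 and comp2056_c0 are 3 of the 64618 assembled components measured in the embryonic limb of the bent-wing bat Miniopterus schreibersii. An assembled component is a set of sequence reads joined together, and it may cover a full transcript or only a fragment. The 3 were selected on their measured scores: each was present in both limbs, scored higher in forelimb than in hindlimb in all 6 matched pairs of libraries, and was lower towards the fetal stage. All 3 passed the filter on low values, a minimum of 10 for the score averaged across the 14 libraries, which kept 20429 components. The limb difference and the lower fetal level chose them, so both are given below as descriptions with no test.

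Each library came from the tissue of 1 part of the autopod, the region of the limb that becomes hand or foot. At stage S14, anterior, middle and posterior parts of the forelimb bud and of the hindlimb bud gave 6 libraries. At stages S15-17, the wing region gave forelimb digits II-V and the interdigital tissue between them, the thumb side gave forelimb digit I and the web joining it to digit II, and the foot gave its digits I-V and its own interdigital tissue. The fetal stage gave metacarpals II-V and metatarsals I-V. The labels name no genotype, treatment or strain, and the number of embryos behind a library is not stated there.

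Forelimb and hindlimb are built from a shared developmental plan, and vertebrate embryos tell them apart early through limb-type regulators such as Tbx5 in the forelimb and Pitx1 and Tbx4 in the hindlimb. In bats the digits behind the thumb grow very long and the tissue between them is kept as wing membrane, while digit I and the foot stay short and free. None of the component identifiers matched the table of 22775 RefSeq genes used here (0 matches), so the 3 components carry no gene name, role or sequence, and other genes of a pathway could not be counted beside them. For the same reason the labelled tissues could not be checked against marker genes. None of the 3 shares its assembly number with another listed component, as 2.77% of components do.

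Values are scores, the authors' normalized counts rounded to whole numbers, and 1 read is worth between 1.29 and 2.23 score units depending on the library. The libraries held between 4550754 and 7648427 reads. Every interval below is an exact 95% interval that covers counting error only, because no part has a repeat library. The fetal pair stands apart in kind as well as in stage, since it held metacarpals and metatarsals, which the labels name for no earlier library. Over all kept components, the median log2 change between fetal metapodials and S15-17 digits was -0.23. Scores are not corrected for transcript length. Levels are therefore compared between libraries and not between components, apart from the ratios and the ranks by mean score printed as such.

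In S14 buds, comp2108_c0 scored 1817 in the anterior, 5828 in the middle and 5340 in the posterior part of the forelimb, against 707, 902 and 927 in the same parts of the hindlimb. The middle and posterior forelimb parts stood far above all the others, and the anterior forelimb part still lay above every hindlimb part. At S15-17 it scored 1143 in wing digits and 576 in wing interdigital tissue. The thumb side had 436 and 536 in the same tissues, and the foot had 322 and 204. All 4 forelimb scores of that period lay above both foot scores. The fetal scores were 327 in metacarpals and 252 in metatarsals. Its lowest score of all was thus in foot interdigital tissue at S15-17 and not in a fetal library.

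Component comp4839_c0 scored 582, 568 and 354 in anterior, middle and posterior forelimb bud, against 107, 169 and 91 in the hindlimb bud. No hindlimb bud part reached the lowest forelimb part. At S15-17 it scored 414 in wing digits and 177 in wing interdigital tissue. The thumb side had 286 and 248 in the same tissues, and the foot had 195 and 98. Here the limbs overlapped, because foot digits lay above wing interdigital tissue. The fetal scores were 28 in metacarpals and 10 in metatarsals, which rest on 22 and 6 reads.

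Component comp2056_c0 scored 551, 860 and 376 in anterior, middle and posterior forelimb bud, against 122, 181 and 187 in the hindlimb bud. The forelimb parts again lay above all hindlimb parts. At S15-17 it scored 506 in wing digits and 317 in wing interdigital tissue. The thumb side had 359 and 315 in the same tissues, and the foot had 272 and 114. The 4 forelimb scores lay above both foot scores. The fetal scores were 39 in metacarpals and 21 in metatarsals, from 30 and 13 reads.

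**Figure D1:**
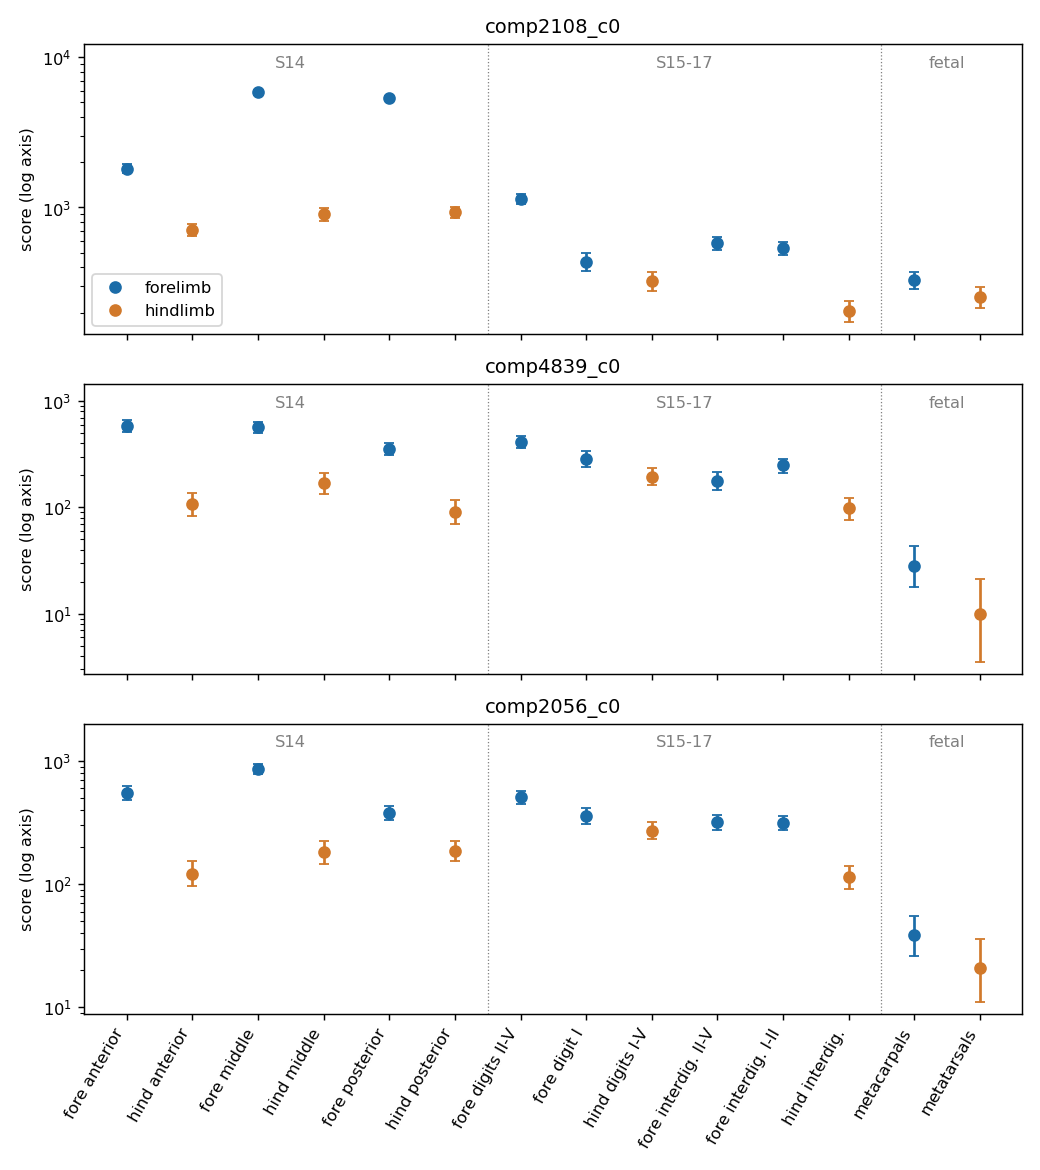
Score of each component (log axis) in each of the 14 libraries, by period, with forelimb in blue and hindlimb in orange. Points are single libraries and bars are exact 95% counting intervals. In S14 buds every forelimb point lies above every hindlimb point, and comp4839_c0 and comp2056_c0 drop to scores of 10 to 39 in the fetal libraries.

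For S14 buds, all 3 components thus had forelimb scores above every hindlimb score, as did 7.1% of kept components. At S15-17, 2 of the 3 had all 4 forelimb scores above both hindlimb scores, and 5.78% of kept components did. These comparisons use the contrast that chose the components. Higher forelimb scores in all 6 pairs, which the choice required, were found in 365 of the 20429 kept components, or 1.79%.

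Forelimb scores averaged 2505 ± 2444 and hindlimb scores 552 ± 332 for comp2108_c0 over the 6 pairs (SD, n = 6 parts each). For comp4839_c0 the means were 354 ± 219 in forelimb and 112 ± 65.1 in hindlimb, and for comp2056_c0 they were 442 ± 273 and 149.5 ± 84.8 (SD, n = 6 parts each). Each set of 6 parts spans 3 periods. Within pairs, the mean forelimb minus hindlimb difference in log2(score + 1) was 1.71 ± 0.85 for comp2108_c0, 1.58 ± 0.58 for comp4839_c0 and 1.44 ± 0.63 for comp2056_c0 (SD, n = 6 pairs). Among all kept components, 18, 26 and 43 had a larger mean difference than comp2108_c0, comp4839_c0 and comp2056_c0, and the median over all kept components was -0.02. Without the fetal pair the mean differences were 1.98, 1.61 and 1.55.

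The size of the limb difference over the pairs is given for each component. For comp4839_c0 and comp2056_c0, the counting intervals overlapped in all but the posterior bud pair. In comp2108_c0, forelimb exceeded hindlimb 2.57-fold in the anterior bud (2.29 to 2.89), 6.46-fold in the middle bud (5.84 to 7.16) and 5.76-fold in the posterior bud (5.27 to 6.30). It exceeded it 3.55-fold in digits (3.01 to 4.20), 2.82-fold in interdigital tissue (2.33 to 3.44) and 1.30-fold in metapodials (1.06 to 1.59). Both the level and the limb difference of comp2108_c0 were thus small at the fetal stage, where 26.1% of kept components had a larger log2 difference.

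In comp4839_c0 the difference was widest in the anterior bud, at 5.44-fold (4.12 to 7.21), against 3.36-fold in the middle bud (2.63 to 4.36) and 3.89-fold in the posterior bud (2.88 to 5.28). It was 2.12-fold in digits (1.69 to 2.67) and 1.81-fold in interdigital tissue (1.33 to 2.47). The fetal pair had 2.80-fold, with an interval of 1.16 to 8.86 that includes the values of both S15-17 pairs. The mean log2 difference of comp4839_c0 was 2.04 over the 3 S14 pairs, 0.96 over the 2 S15-17 pairs and 1.40 in the fetal pair. The limb difference was thus narrower at S15-17 than at S14, and no further narrowing was seen at the fetal stage. The fetal interval is too wide to place that pair.

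In comp2056_c0 the fold was 4.52 in the anterior bud (3.47 to 5.93), 4.75 in the middle bud (3.77 to 6.04) and 2.01 in the posterior bud (1.60 to 2.53). It was 1.86 in digits (1.53 to 2.27), 2.78 in interdigital tissue (2.14 to 3.63) and 1.86 in metapodials (0.94 to 3.86). The posterior bud pair lay below the interdigital pair of the later period, with overlapping counting intervals. The single pairs therefore did not narrow strictly in order of stage. The mean log2 difference of comp2056_c0 did, at 1.80 over the 3 S14 pairs, 1.18 over the 2 S15-17 pairs and 0.86 in the fetal pair. The fetal interval includes equal scores in both limbs.

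**Figure D2:**
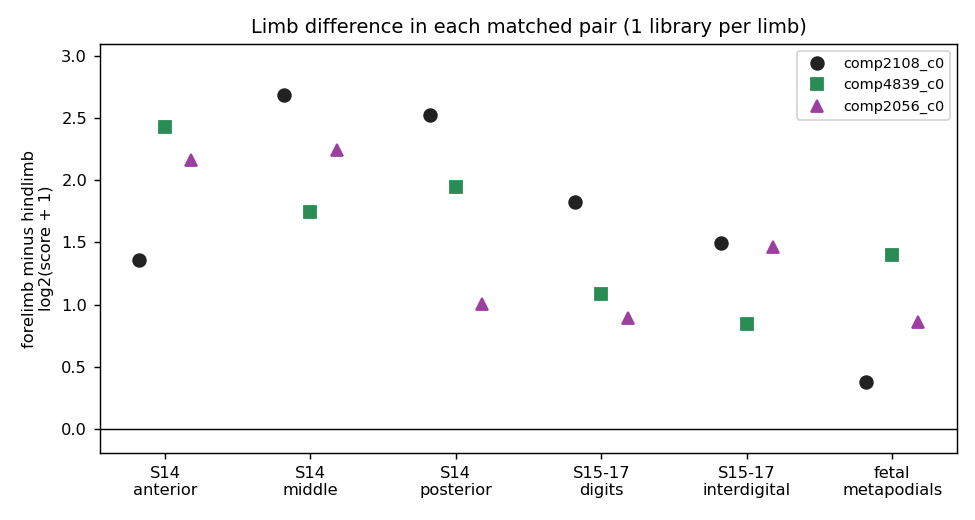
Forelimb minus hindlimb difference in log2(score + 1) for each matched pair, with 1 library per limb in each pair and symbols for the 3 components. All 18 differences are above 0. comp2108_c0 is largest in the middle and posterior bud, comp4839_c0 in the anterior bud and comp2056_c0 in the middle bud. The fetal pair is the smallest for comp2108_c0, at 0.37, but not for comp4839_c0, at 1.40. For comp2056_c0 the fetal pair, at 0.86, is the smallest by little, with digits at 0.89.

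The stage at which the scores were lower differed between the components and between the limbs. In forelimb, comp2108_c0 averaged 4328 ± 2189 at S14 (SD, n = 3 parts) and 673 ± 319 at S15-17 (SD, n = 4 parts), so the later mean was 15.5% of the earlier one. In hindlimb it averaged 845 ± 120 at S14 (n = 3 parts) and 263 ± 83.4 at S15-17 (n = 2 parts), or 31.1%. In both limbs the S14 scores lay above all S15-17 scores of the same limb. Fetal metacarpals held 28.6% of the score of forelimb digits II-V (24.7 to 33.2), and fetal metatarsals held 78.3% of the score of hindlimb digits (63.0 to 97.4).

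Component comp4839_c0 reached its low scores later. In forelimb its mean was 501 ± 128 at S14 (SD, n = 3 parts) and 281 ± 99.4 at S15-17 (n = 4 parts), with overlapping scores. In hindlimb the means were 122 ± 41.2 (n = 3 parts) and 147 ± 68.6 (n = 2 parts), so the hindlimb score was not lower at S15-17. The low values came with the fetal libraries, at 6.76% of the digit score in forelimb (4.21 to 10.6) and 5.13% in hindlimb (1.78 to 11.1).

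Component comp2056_c0 had the same course. Its forelimb means were 596 ± 245 at S14 (SD, n = 3 parts) and 374 ± 90.1 at S15-17 (n = 4 parts), and its hindlimb means were 163 ± 35.9 (n = 3 parts) and 193 ± 112 (n = 2 parts). Fetal metacarpals held 7.71% of the digit score (5.06 to 11.1) and fetal metatarsals 7.72% (4.0 to 13.5). The lower hindlimb level of comp4839_c0 and comp2056_c0 was therefore a fetal feature. By contrast, comp2108_c0 was already lower in both limbs at S15-17 than at S14. With both limbs fitted together, 2.18% of kept components had a larger log2 change between these periods, in either direction, than comp2108_c0. The share was 47.9% for comp4839_c0 and 59.4% for comp2056_c0. Between S15-17 digits and fetal metapodials the shares were 40.2% for comp2108_c0, 3.49% for comp4839_c0 and 4.71% for comp2056_c0. These shares are descriptions, since the course with stage was part of the choice. Each period holds other dissected parts, so stage and dissection cannot be told apart, nor can fewer cells that carry a transcript be told apart from less of it per cell.

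Digit I and its adjacent interdigital tissue entered none of the 6 pairs, although they are among the 14 libraries over which the course with stage was read. They were higher than the foot in both tissues for 3 of 3 components, as in 24.7% of kept components. The foot libraries they are set against were used in the choice, so no test is given. Thumb-side digit scores exceeded foot digit scores 1.35-fold for comp2108_c0 (1.10 to 1.66), 1.47-fold for comp4839_c0 (1.13 to 1.90) and 1.32-fold for comp2056_c0 (1.05 to 1.65). In interdigital tissue the thumb side exceeded the foot 2.63-fold for comp2108_c0 (2.17 to 3.20), 2.53-fold for comp4839_c0 (1.92 to 3.39) and 2.76-fold for comp2056_c0 (2.13 to 3.59). The excess over the foot was thus wider in interdigital tissue than in digits for each component, with counting intervals that did not overlap.

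Set against the thumb side, wing digits scored 2.62-fold higher for comp2108_c0 (2.24 to 3.08), 1.45-fold higher for comp4839_c0 (1.17 to 1.80) and 1.41-fold higher for comp2056_c0 (1.16 to 1.72). In interdigital tissue the wing to thumb-side ratio was 1.07 for comp2108_c0 (0.93 to 1.25) and 1.01 for comp2056_c0 (0.83 to 1.23), both within counting error of 1. For comp4839_c0 it was 0.71 (0.55 to 0.91), with 177 in wing interdigital tissue and 248 on the thumb side. Among digits the order was wing, thumb side and foot for all 3 components, and among interdigital tissues the foot was lowest for all 3.

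**Figure D3:**
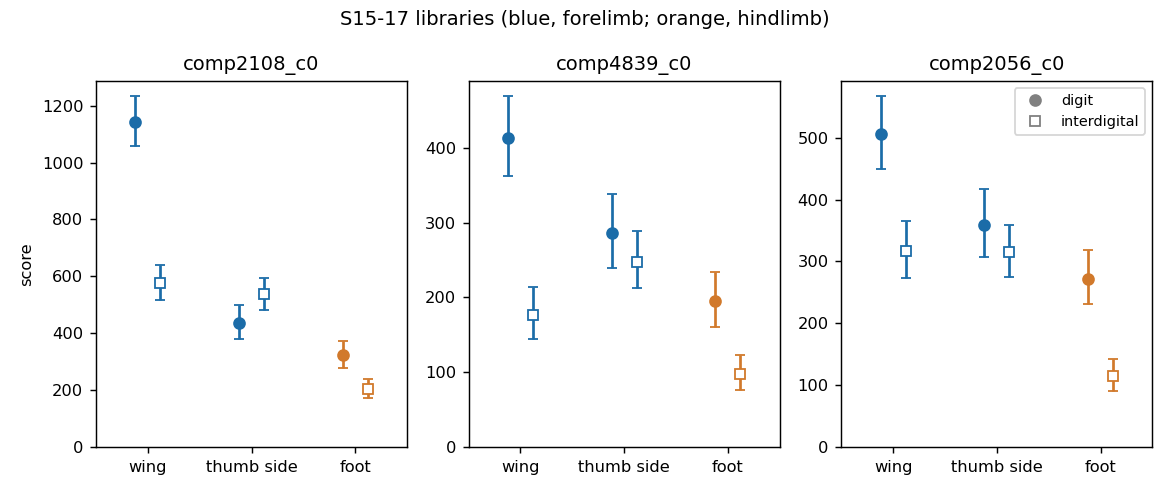
Score of each component in the 6 libraries of S15-17, by region, with filled circles for digits and open squares for interdigital tissue. Points are single libraries and bars are exact 95% counting intervals. Wing digits have the highest score in each panel, and foot interdigital tissue the lowest.

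Whether digits and interdigital tissue differ was not part of the choice and could be tested over the 3 regions. For comp4839_c0, digits scored 414, 286 and 195 in wing, thumb side and foot, against 177, 248 and 98 in interdigital tissue. For comp2056_c0, digits scored 506, 359 and 272, against 317, 315 and 114. Digits were higher in all 3 regions for both, as in 16.2% of kept components. On the thumb side the excess was within counting error, at 1.15-fold for comp4839_c0 (0.91 to 1.45) and 1.14-fold for comp2056_c0 (0.93 to 1.40). For comp2108_c0, digits scored 1143, 436 and 322, against 576, 536 and 204, so the thumb side went the other way at 0.81-fold (0.68 to 0.97).

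In limma with the region as block, the digit minus interdigital log2 difference was 0.80 for comp4839_c0 (SE 0.22, adjusted p = 0.412), 0.70 for comp2056_c0 (SE 0.21, adjusted p = 0.448) and 0.45 for comp2108_c0 (SE 0.24, adjusted p = 0.662). None of the 3 passed the threshold of 0.05 after Benjamini-Hochberg adjustment over all kept components. An unadjusted p under 0.05 was found for 2 of the 3 and for 1746 of the 20429 kept components. The same fit called 0.0196% of kept components higher in digits and 0% lower. limma voom on recovered reads called 0 of the 3 and 218 of all. These 3 regions had no repeat library, so a difference of this size was not resolved, and the p-values do not show that the tissues are alike.

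Position along the S14 bud was not part of the choice either. The middle part lay above the mean of the outer parts in both limbs for all 3 components, as in 25.2% of kept components. The middle was the highest part in forelimb for comp2108_c0 and comp2056_c0, and in hindlimb for comp4839_c0. In the other limb of each component, an outer part scored slightly higher. In limma with limb as block, the middle minus outer log2 difference was 0.53 for comp2108_c0 (SE 0.30), 0.55 for comp4839_c0 (SE 0.19) and 0.59 for comp2056_c0 (SE 0.30), each with an adjusted p of 0.93. That fit called 0% of components in either direction. It gave an unadjusted p under 0.05 to 1 of the 3 and to 990 of the 20429 kept components. The voom fit called 0 of the 3 and 40 of all. When 1 bud library was left out, the difference ran from 0.16 (without the middle forelimb bud) to 0.90 (without the middle hindlimb bud) for comp2108_c0 and from 0.26 to 0.92 for comp2056_c0 without the same libraries. For comp4839_c0 it ran the other way, at 0.77 without the middle forelimb bud and 0.32 without the middle hindlimb bud.

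From anterior to posterior the components differed. The anterior part of comp2108_c0 held 0.34 times the posterior score in forelimb (0.31 to 0.37) and 0.76 times in hindlimb (0.67 to 0.86). For comp4839_c0 the anterior part held 1.64 times the posterior score in forelimb (1.37 to 1.98) and 1.18 times in hindlimb (0.81 to 1.71). For comp2056_c0 the limbs went opposite ways, at 1.47 times in forelimb (1.22 to 1.76) and 0.65 times in hindlimb (0.48 to 0.88).

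In limma with limb as block, the anterior minus posterior log2 difference was -0.97 for comp2108_c0 (SE 0.35, adjusted p = 0.947), 0.47 for comp4839_c0 (SE 0.21, adjusted p = 0.947) and -0.03 for comp2056_c0 (SE 0.35, adjusted p = 1). No component passed in either direction (0%), and voom called 0 of the 3 and 15 of all. An unadjusted p under 0.05 was found for 1 of the 3 and for 793 of the 20429 kept components. With 2 limbs and no repeat library, the spread that the test uses is the disagreement between the limbs. The value of comp2056_c0 turned to 0.24 without the anterior hindlimb bud and to 0.57 without the posterior hindlimb bud, and that of comp2108_c0 moved to -0.35 without the anterior forelimb bud and to -1.60 without the anterior hindlimb bud. That of comp4839_c0 moved to 0.18 without the anterior forelimb bud and to 0.77 without the anterior hindlimb bud.

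Across the 14 libraries, comp4839_c0 and comp2056_c0 followed each other closely. The Pearson r of their log2(score + 1) profiles was 0.98, and each was the other's nearest profile among 13115 other components whose mean score reached 50. Spearman rho was 0.96, with the same first place. Without the fetal libraries r was 0.94 over 12 libraries. These values are descriptions, since the libraries share their stages and limbs, and both components were chosen for 1 course over them. The ratio of comp2056_c0 to comp4839_c0 scores stayed between 0.95 in the anterior forelimb bud and 2.10 in the metatarsals. Whether the 2 are pieces of 1 transcript is not given by the table.

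Component comp2108_c0 was less like them, with an r of 0.66 to comp4839_c0 and 0.67 to comp2056_c0, which put these at places 747 and 645 of its nearest profiles. Its score was 5.34 to 10.2 times that of comp4839_c0 in the hindlimb buds and 3.12 to 15.1 times in the forelimb buds. At S15-17 the ratio was 1.52 to 3.25, and it was 11.7 in metacarpals and 25.2 in metatarsals. The S15-17 range overlapped that of the forelimb buds, where the anterior part had 3.12, and lay below the hindlimb buds and the fetal libraries.

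**Figure D4:**
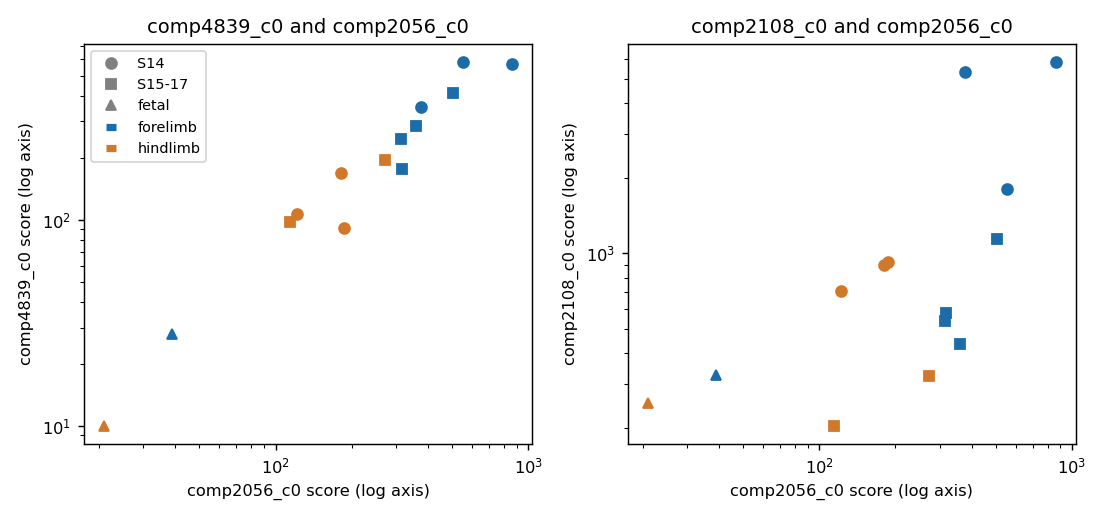
Scores of comp4839_c0 (left) and comp2108_c0 (right) against those of comp2056_c0 in the 14 libraries, all on log axes, with symbols for period and colours for limb. On the left the 14 points lie close to 1 line (r = 0.98), and on the right the S15-17 points lie below the S14 points at like scores of comp2056_c0 (r = 0.67).

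The next profile after comp2056_c0 in likeness to comp4839_c0 was comp10399_c0, with an r of 0.96. It scored 330, 261 and 185 in anterior, middle and posterior forelimb bud, against 85, 158 and 77 in hindlimb bud, and 22 in metacarpals against 13 in metatarsals. It too was higher in forelimb in 6 of 6 pairs, as were 1.79% of kept components. Such pair counts are descriptions here and below, because the profiles were picked for likeness to components chosen on the limb difference. For comp2056_c0 the second profile was comp15087_c0, at an r of 0.94 and with 5 of 6 pairs higher in forelimb. The profiles nearest to comp2108_c0 were comp1581_c0 (r = 0.90, 6 of 6 pairs) and comp5651_c0 (r = 0.89, 5 of 6 pairs). By Spearman rho comp10399_c0 kept its place, and these last 3 were at places 21, 11 and 143.

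The wording of the choice fits further components. When it was read as a score above 0 in all 14 libraries, forelimb higher in all 6 pairs, and mean scores that were lower at S15-17 than at S14 and lower again in fetal libraries, 97 kept components met it. Ordered by mean limb difference, comp2108_c0, comp4839_c0 and comp2056_c0 were at places 4, 5 and 6. The component just before them had a log2 difference of 1.82 at a mean score of 65.8, and the one just after had 1.43 at a mean score of 651. With a mean score of 1380 over the 14 libraries, comp2108_c0 was in the top 7.04% of kept components by score. With 238 and 301, comp4839_c0 and comp2056_c0 were in the top 37.2% and 32.6%. Scores are not corrected for transcript length, so these are not ranks of transcript abundance.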

How the data were processed

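Messenger RNA was sequenced from 14 limb libraries. Per the labels' protocols, the TruSeq kit was used on DNase-treated total RNA. CASAVA 1.8, RSEM and edgeR are listed, per the submitters' processing notes, with no role or order. The assembly method is not stated there. The deposited values are scores, the authors' normalized counts rounded to whole numbers. Reads were recovered as the largest step per library whose rounded multiples hold the nonzero scores up to 2000 (tolerance 0.5). This matched 99.98% to 100% of all nonzero scores.

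Differences were fitted with limma 3.58.1 (R 4.3.3) on log2(score + 1), using the trend of variance with mean. This scale understates changes of low components. Those averaging a score of 10 or more were kept, holding 98.95% of all scores. p-values are two-sided, with Benjamini-Hochberg adjustment over all kept components and a threshold of 0.05. The matched pair, the region or the limb was the block. Blocks come from the anatomy in the labels, not from replicate numbers or shared embryos. Parts stand in for replicates, so p-values measure the spread between parts. Fold intervals are exact binomial ones on reads.

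The 3 components, and the tests and alternatives, were chosen with earlier results of these data known. Components named beside them are the 2 with the highest Pearson r to each. The fits were also run on simulated reads, in which unchanged components had the same mean in all parts. That setting leaves out the spread between dissected parts, so it does not check the p-values under that spread. Other steps ran in Python 3.11.15 with matplotlib 3.10.9, scipy 1.17.1, pandas 2.3.3 and numpy 2.4.6.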

Additional observations from a re-analysis of the deposited data

Results flagged for a closer look

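Component comp2108_c0 had opposite digit minus interdigital log2 differences between regions, at 0.99 in the wing and -0.30 on the thumb side, with 0.66 in the foot, each beyond counting error. The difference between regions was not tested, since each rests on 1 library per tissue.

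Component comp2056_c0 had opposite anterior minus posterior log2 differences in the S14 buds, at 0.55 in forelimb and -0.61 in hindlimb, each beyond counting error. The difference between the limbs was not tested, since each rests on 1 library per part.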

How the results depend on the processing

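The limb log2 differences of the 3 components kept their direction under all 12 alternatives. This outcome was fixed by the choice, which required higher forelimb scores in all 6 pairs. The tissue and bud differences of the 3 kept theirs under all 9 and all 12 alternatives, except the anterior minus posterior value of comp2056_c0. It turned from -0.03 to 0.14 with limma voom on recovered reads, and ran from -0.63 to 0.57 when 1 bud library was left out. No tissue or bud call of the 3 was gained.

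Counts of called components varied more. For the limb, 15 were called in all, against 8 with a pseudocount of 0.25, 8 with no filter, 142 with voom and 6 to 12 without 1 pair. Digit against interdigital tissue had 4 calls, against 0 with a pseudocount of 0.25, 31 with a pseudocount of 5, 0 with no filter, 197 with median-centred libraries, 218 with voom and 0 to 35 without 1 region. The bud axis had 0, against 721 with no filter and 15 with voom from anterior to posterior, and 219 with no filter, 1 with median-centred libraries and 40 with voom for middle against outer parts. With no replicate block, 6 components were called for the limb and 0 between tissues. The cause was not tested.

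With a score of at least 10 in all 14 libraries, 75 components met the conditions of the choice, against 97. Depth limits comp4839_c0 and comp2056_c0 in the fetal libraries, where they rest on 6 to 30 reads.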
